A study of Mus musculus with 17 samples.

Results

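Voltage-gated sodium and calcium channel genes were examined in the mouse dorsal hippocampus. The members were the rows of the count table whose symbol named a sodium channel alpha or beta subunit (Scn, a number, then a or b) or a calcium channel alpha1, alpha2delta, beta or gamma subunit (Cacna, Cacnb, Cacng). The rule took 39 of 24498 gene symbols, of which 13 were sodium channel and 26 were calcium channel genes. The epithelial channel gene Scnn1a fell outside it, and so did the neuronal sodium channel Nav1.2, which the table lists under the older symbol Scn2a1. RNA was measured by bulk poly(A) sequencing of dorsal hippocampus cut from slices that held CA1, CA2, CA3 and the dentate gyrus. Wild-type (WT) mice and mice with a constitutive knockout (KO) of Acss2, which encodes an acetyl-CoA synthetase, were injected at 6 months of age into the right dorsal hippocampus. The injection held tau protein purified from the frontal cortex of people with Alzheimer's disease (Tau) or phosphate-buffered saline (PBS), and tissue was taken after a further 6 months. The males formed 4 groups of 3 libraries, 1 for each pairing of genotype (WT, KO) with injection (PBS, Tau). The females had received Tau alone and formed the remaining groups, with 3 KO and 2 WT libraries.

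KO and WT mice came from homozygous crosses of the F1 progeny of heterozygote cages, so that the knockout was present in every cell throughout life. No female mouse received PBS, and every female library carried a label number beginning with 3 while every male one began with 7, so sex and label series cannot be told apart. Each library is named below by its label number. The libraries held 14183131 to 22463635 counts, and a gene with no count may still hold up to 3, which is 0.134 to 0.212 CPM (the count relative to the library's total, put on a common scale). This limit covers counting error only. Acss2 itself ranged over 3.08 to 8.81 CPM across the 9 libraries of KO mice, against 44.0 to 54.6 CPM across the 8 of WT mice, so every library matched its genotype label. Markers of dentate granule cells and of CA1 pyramidal neurons were present in every library, but the libraries differed in their level. The dentate score, the mean log2 CPM of 8 such genes, was 2.00 in male KO PBS library 752, 2.98 in male KO Tau library 712 and 3.79 in male KO Tau library 713. It was 4.02 to 5.42 in the other 9 male libraries and 3.74 to 5.15 in the females. The CA1 pyramidal score (6 genes) was 5.48, 6.45 and 6.5 in these 3 libraries. It was 7.07 to 7.3 in the other 9 male libraries and 5.97 to 7.17 in the females, lowest in female library 331. The same 3 libraries had the highest scores for 8 neocortex genes, at 5.72, 5.27 and 5.19, against 3.30 to 4.54 in the other 9 male libraries. Library 752 also stood apart in 8 striatum genes, with a score of 5.17 against 2.17 to 3.57 in all other libraries. The labels say of all 17 libraries that they are dorsal hippocampus. Some results that rest on 752 are given below with and without it, but most that rest on 712 or 713 are given only with them.

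Voltage-gated sodium channels open in response to depolarisation and carry the upstroke of the action potential. An alpha subunit forms the pore, and beta subunits, which are also cell adhesion molecules, set its gating and its place in the membrane. Voltage-gated calcium channels turn depolarisation into calcium entry, which drives transmitter release at terminals, bursts of spikes in dendrites and signals to the nucleus. Their alpha1 subunit forms the pore, the intracellular beta subunit and the extracellular alpha2delta subunit bring it to the membrane, and most gamma subunits of the brain serve AMPA-type glutamate receptors as auxiliary proteins (TARPs) rather than calcium channels. In bulk tissue fewer cells of a type and less RNA per cell cannot be told apart.

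The hippocampal channel genes were first ranked by level. To compare genes, counts were divided by the summed exon length of the gene and rescaled to the same total in each library (TPM, like CPM but per length). Among the pore-forming sodium channel subunits of the central nervous system, Scn8a (Nav1.6, the main channel of the axon initial segment and nodes in adult neurons) had a mean of 105 TPM over the 17 libraries and a range of 51.7 to 155 TPM. Scn1a (Nav1.1, prominent in fast-spiking inhibitory neurons) followed with a mean of 53.9 TPM. Scn3a (Nav1.3, mostly an embryonic channel) had a mean of 14.7 TPM. Scn2a1 stood between Scn8a and Scn1a with a mean of 101 TPM, a value within the spread of Scn8a between libraries.

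Sodium channel subunits of skeletal muscle and peripheral nerve were low. Scn7a, a sodium-sensing relative of these channels, had a mean of 2.05 TPM, from 14 to 132 counts a library. Scn9a (Nav1.7, known from pain-sensing neurons) had a mean of 0.678 TPM, from 19 to 90 counts a library. Scn10a, another channel of sensory neurons, was at 0 counts in 5 libraries and reached at most 18 counts. Scn4a (skeletal muscle) reached 5 counts, was at 0 in 4 libraries and was not tested further, and the same held for Scn11a, at 0 in 8 libraries with at most 6 counts. The beta subunits were more abundant. Scn2b had a mean of 282 TPM and Scn3b a mean of 174 TPM. Scn4b, which shapes resurgent sodium current and is abundant in striatum and Purkinje cells, had a mean of 59.6 TPM. Its median was 42.6 TPM, and library 752, where it reached 317 TPM, raised the mean.

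Among the calcium channel pores, the presynaptic Cav2 gene Cacna1a had the highest mean. Cacna1a (P/Q-type) had a mean of 56.8 TPM, Cacna1b (N-type) of 48.0 TPM and Cacna1e (R-type) of 35.7 TPM. The low-voltage-activated T-type genes lay in the same range, with means of 45.4 TPM for Cacna1h, 45.3 TPM for Cacna1i and 30.8 TPM for Cacna1g, and the ranges of all 6 of these genes overlapped. With the length of the longest transcript in place of all exons, Cacna1a was again the highest at 61.8 TPM, but the order of the others changed, with 45.6 TPM for Cacna1e, 40.7 TPM for Cacna1h and 37.0 TPM for Cacna1b. The L-type genes, whose channels couple activity to transcription, were lower, with means of 17.7 TPM for Cacna1c and 13.9 TPM for Cacna1d. The L-type genes of skeletal muscle (Cacna1s) and retina (Cacna1f) were at means of 0.438 and 0.186 TPM.

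The auxiliary subunits of calcium channels spanned a wide range. Cacna2d1, a gabapentin receptor that also takes part in synapse formation, had a mean of 71.5 TPM, and the alpha2delta gene Cacna2d3 one of 59.8 TPM. Their order depended on the length used, since by longest transcript they stood at 90.1 and 107 TPM. Cacna2d2 had a mean of 17.2 TPM and Cacna2d4, known from photoreceptors, of 0.950 TPM. Of the beta subunits, Cacnb3 had a mean of 265 TPM, Cacnb1 of 137 TPM, Cacnb4 of 107 TPM and Cacnb2 of 18.5 TPM, which was 36.8 TPM by longest transcript. The TARP genes were led by Cacng8, the hippocampal TARP gamma-8, with a mean of 184 TPM. Cacng7 had a mean of 139 TPM, Cacng3 of 107 TPM, and Cacng2 (stargazin) of 55.3 TPM. Cacng5 and Cacng4 were lower, with means of 13.2 and 9.38 TPM. The muscle-type gamma genes Cacng6 and Cacng1 had means of 2.03 and 0.0943 TPM, and Cacng1, with at most 2 counts, was not tested.

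**Figure D1:**
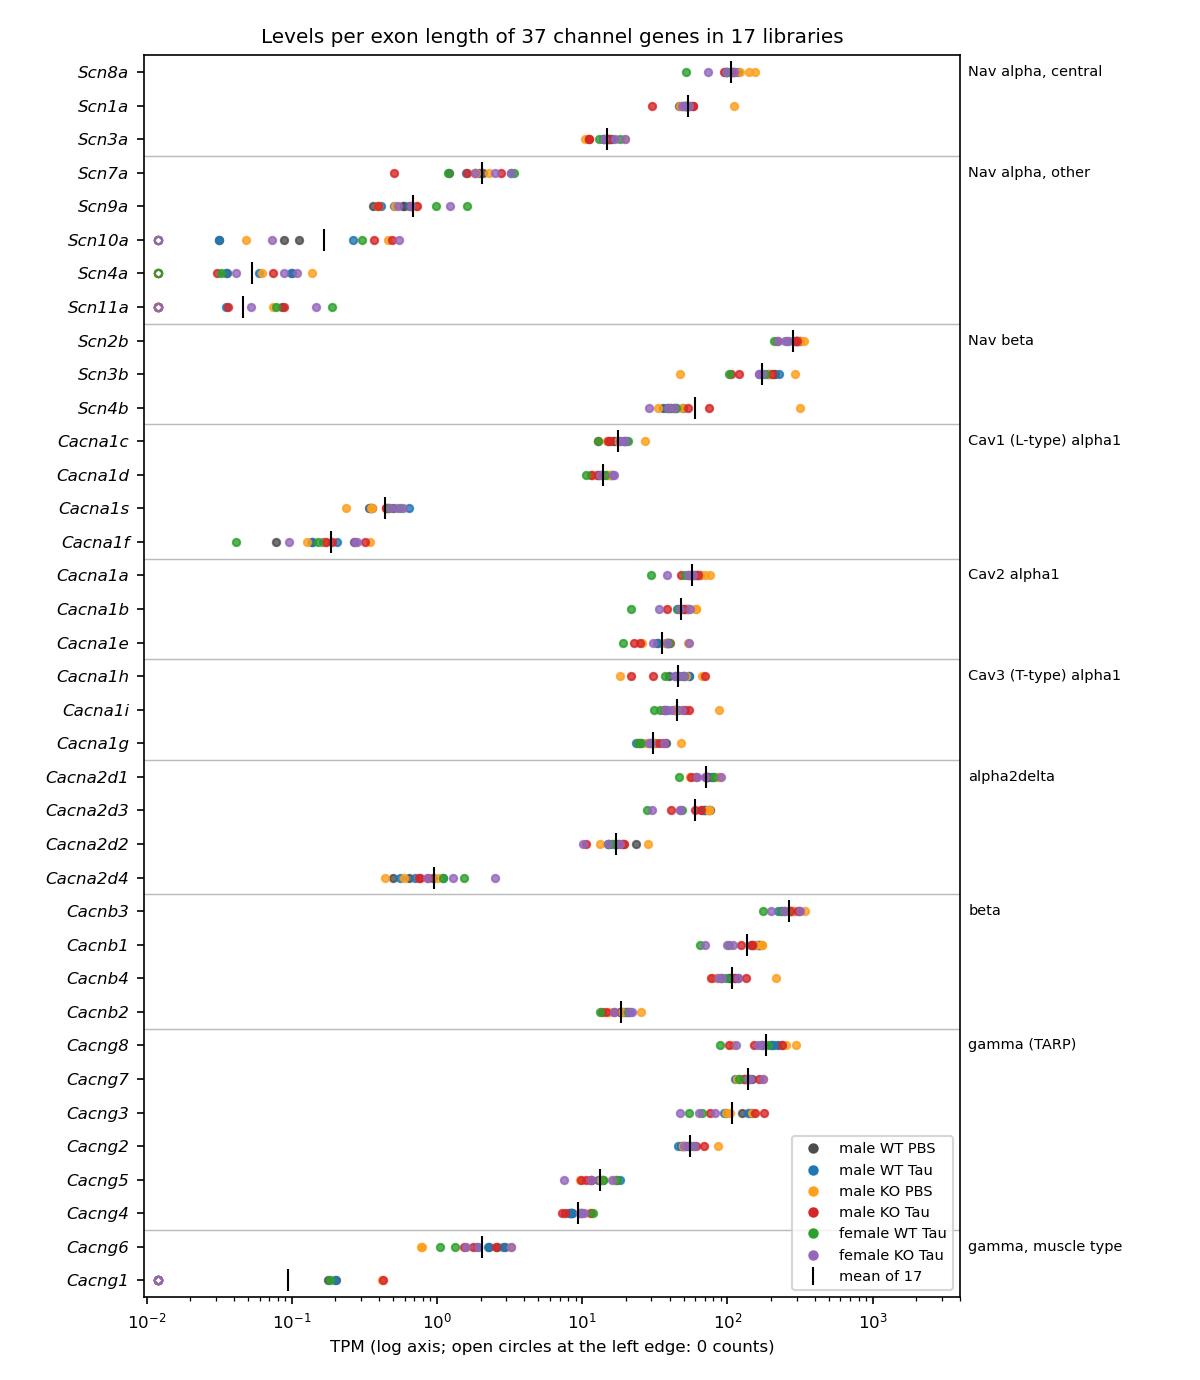
Level per exon length (TPM, log axis) of 37 channel genes, grouped by subunit family, with 1 point per library coloured by group, a black bar at the mean of 17 libraries and open circles at the left edge for libraries with 0 counts. Scn8a spans 51.7 to 155 TPM, and library 752 sets the single high point of Scn4b at 317 TPM.

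Many members lie in tandem arrays (GRCm38, GENCODE gene bounds), and neighbours differed in level by large factors. On chromosome 2 from 65457118 to 66784914 lie Scn3a, Scn2a1, Scn1a, Scn9a and Scn7a, with mean levels from 0.678 to 101 TPM. The beta subunit genes Scn2b and Scn4b adjoin each other on chromosome 9 between 45117782 and 45154152. On chromosome 7 between 3332955 and 3435667, Cacng7 and Cacng8 are followed by the muscle-type Cacng6. On chromosome 11 from 107703218 to 107915055 lie Cacng1, Cacng4 and Cacng5, with mean levels of 0.0943 to 13.2 TPM. As a group, the 36 members tested had long transcripts, with a median summed exon length of 8742 bases against 4364 bases for the 15484 tested genes with a length.

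Levels in single libraries are given next for the leading gene of several families. Cacna1a was at 174, 165 and 150 CPM in male WT PBS, at 146, 158 and 165 CPM in male WT Tau, at 168, 199 and 190 CPM in male KO PBS and at 160, 132 and 171 CPM in male KO Tau. In females it was at 86.5 and 139 CPM in WT Tau and at 151, 143 and 107 CPM in KO Tau, with library 331 the lowest of all 17. Cacna1c was at 83.7, 96.4 and 82.3 CPM in male WT PBS, at 77.4, 97.3 and 99.3 CPM in male WT Tau, at 131, 73.0 and 89.1 CPM in male KO PBS and at 76.4, 66.2 and 79.6 CPM in male KO Tau. The male KO Tau libraries of Cacna1c lay at the low end but overlapped with KO PBS and WT Tau, and the females at 68.4 to 104 CPM overlapped with every male group. Cacna2d1 was at 230, 211 and 214 CPM in male WT PBS, at 228, 211 and 216 CPM in male WT Tau, at 246, 251 and 163 CPM in male KO PBS and at 167, 215 and 183 CPM in male KO Tau. Its female libraries, at 145 to 256 CPM, spanned the whole male range of 163 to 251 CPM. Of the least abundant families, Scn7a lay between 0.883 and 5.88 CPM and Cacng6 between 0.363 and 1.5 CPM, with no group apart from the others.

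The next question was whether Acss2 loss, Tau or both altered these genes in males. Counts were compared with the quasi-likelihood test of edgeR at a false discovery rate (FDR) of 0.05 over all genes tested. In the 12 male libraries 36 of the 39 members passed the filter on low counts, among 15098 genes tested. No member passed the FDR in any of the 8 male comparisons. Few genes of any kind did, so that the count for the members does not set them apart. For WT Tau against WT PBS the share of all genes called was 0%, and 0 of 36 members were at an unadjusted p under 0.05, against 1.86% of all genes. For KO PBS against WT PBS 0.00662% of genes were called, and 2 members (5.56%) were at that p, against 4.42% of all genes. KO Tau against WT PBS also had 0.00662% called, with 0 members at that p against 6.33% of all genes. KO Tau against WT Tau had 0.00662% called, with 3 members (8.33%) at that p against 4.71% of all genes. In KO Tau against KO PBS 0% of genes were called, with 7 of 36 members (19.4%) at an unadjusted p under 0.05 against 7.95% of all genes. The genotype by Tau interaction had 0% called, with 3 members (8.33%) at that p against 4.18%. The average of KO against WT had 0.00662% called, with 6 members (16.7%) at that p against 4.58%, and the average of Tau against PBS had 0% called, with 4 members (11.1%) against 5.38%. These comparisons share libraries, so their counts are not independent of each other. DESeq2 on the same libraries called 1 member, Scn8a, in KO Tau against KO PBS, where it called 0.311% of all genes, and 0 members in the other 7.

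Among the pores, Scn8a had the smallest unadjusted p in KO Tau against KO PBS. Scn8a was at 393, 434 and 366 CPM in male WT PBS, and at 371, 414 and 405 CPM in male WT Tau. In male KO PBS it was at 508, 565 and 454 CPM, and in male KO Tau at 361, 360 and 409 CPM. All 3 KO PBS libraries lay above all 9 other male libraries. For this and the other separations of groups given below, the share of all genes that separate likewise was not counted. Its log2 fold change was 0.41 ± 0.11 (standard error, SE) in KO PBS against WT PBS and -0.48 ± 0.11 in KO Tau against KO PBS, with edgeR adjusted p-values of 0.999 and 0.550 (n = 3 libraries a group). The interaction term was -0.46 ± 0.16 (adjusted p = 0.996 by edgeR). DESeq2 gave -0.48 with an adjusted p of 0.0290 for KO Tau against KO PBS in the 12 male libraries, and did not call it when only these 6 libraries were fitted. Without library 752 the edgeR value was -0.40. KO PBS library 751 and library 753, with dentate scores of 5.42 and 4.02, had Scn8a levels above every other male library but 752.

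Among the Cav2 pore genes, Cacna1b showed a smaller difference than Scn8a in KO Tau against KO PBS. The libraries of these groups overlapped for Cacna1a and Cacna1e. Cacna1b, the N-type pore, was at 139, 140 and 126 CPM in male KO PBS and at 90.8, 113 and 120 CPM in male KO Tau. These groups did not overlap, a separation that was not counted over all genes. By edgeR, 0% of all genes passed the FDR there, which is a different measure. Its log2 fold change was -0.37 ± 0.11 (edgeR adjusted p = 0.550). Male WT PBS, at 116, 124 and 122 CPM, lay below KO PBS too.

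Among the alpha2delta subunits, Cacna2d3 had the smallest unadjusted p for male KO Tau. It was at 142, 135 and 156 CPM in male WT PBS, at 155, 145 and 142 CPM in male WT Tau, and at 149, 152 and 152 CPM in male KO PBS. In male KO Tau it was at 85.9, 139 and 125 CPM, and all 3 values lay below every male WT Tau and KO PBS library. The log2 fold change was -0.42 ± 0.14 against KO PBS and -0.32 ± 0.14 against WT Tau, neither past the FDR (edgeR adjusted p = 0.550 and 0.927). Library 711, the lowest, had a pan-neuronal score of 9.55 against 9.95 to 10.2 in the other 11 male libraries. Without 711 the edgeR values were -0.25 against KO PBS and -0.15 against WT Tau, so this library decided their size.

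No beta subunit of calcium channels passed the FDR in males. Of those with an unadjusted p under 0.05, Cacnb2 was at 64.5, 66.4 and 59.9 CPM in male WT Tau and at 52.7, 43.8 and 46.7 CPM in male KO Tau, without overlap, for a log2 fold change of -0.39 ± 0.15 (edgeR adjusted p = 0.927). Cacnb3, the most abundant beta subunit, was at 214, 226 and 265 CPM in male WT Tau and at 300, 263 and 296 CPM in male KO Tau. The log2 fold change of Cacnb3 was 0.31 ± 0.12 with the same adjusted p, and library 712 overlapped with WT Tau. Its average over treatments was 0.25 ± 0.09 higher in KO (edgeR adjusted p = 0.945).

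Scn4b and Cacng2 were higher on average in KO males, but not past the FDR, and 752 decided the size of the first. Scn4b was at 47.7, 57.1 and 42.6 CPM in male WT PBS and at 46.6, 51.8 and 45.0 CPM in male WT Tau. It was at 38.3, 365 and 57.5 CPM in male KO PBS, where the 365 CPM belong to library 752, and at 50.8, 64.6 and 90 CPM in male KO Tau. The log2 fold change in KO PBS against WT PBS was 1.69 ± 0.65 with all libraries and 0.0096 without 752. The KO average was 1.12 ± 0.45 with all libraries and 0.28 without it (edgeR adjusted p = 0.945 with all). Library 752 is also the library with the striatum score of 5.17. Cacng2 was at 62.9, 110 and 65.1 CPM in male KO PBS and at 71.1, 91.5 and 80.0 CPM in male KO Tau, against 59.7 to 66.8 CPM in the 6 male WT libraries. Its KO average was 0.36 ± 0.13 (edgeR adjusted p = 0.945) and 0.21 without 752.

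**Figure D2:**
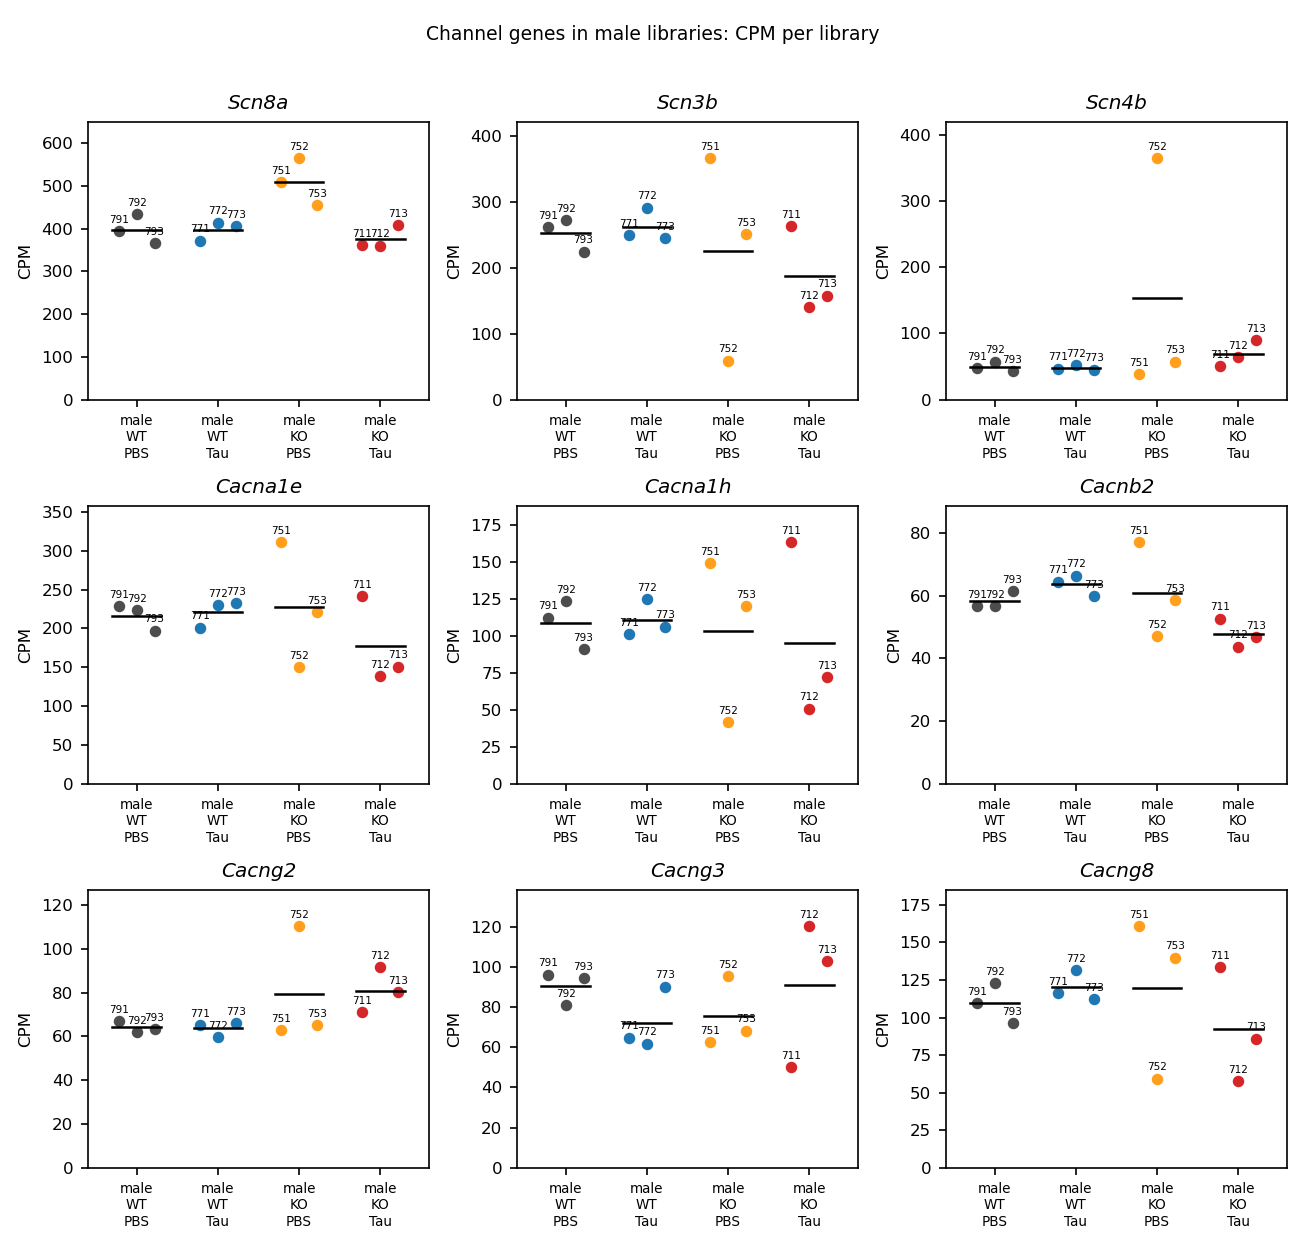
CPM per library of 9 channel genes in the 4 male groups, with library numbers beside the points and a black bar at each group mean (n = 3). The Scn8a points of KO PBS, at 454 to 565 CPM, lie above all other male points, and in Scn3b, Cacna1e, Cacna1h and Cacng8 the libraries 752, 712 and 713 lie below the others.

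The spread of the members within groups was wide, and part of it lay in single libraries. The standard deviation (SD) of log2 CPM around the group means had a median of 0.29 over the 36 members and of 0.21 over the 15594 genes tested in all 17 libraries. Scn4b had an SD of 0.78, which was 0.28 without library 752, and Scn3b had 0.66, which was 0.33 without it. In libraries 752, 712 and 713 together, 5 members lay below and 6 above all 9 other male libraries, which is 30.6% of the 36 tested members against 12.7% of all 15098 genes tested. These libraries were set apart by their marker scores, not by their labels, and the comparison is a description without a test. The 5 lower members were Scn3b, Cacna1e, Cacna1h, Cacnb2 and Cacng8. Only Cacna1h also lay below every female library. Female library 331 held Scn3b at 142.5 CPM, Cacna1e at 122 CPM, Cacnb2 at 44.3 CPM and Cacng8 at 52.5 CPM. Scn3b, a beta subunit, was at 59.4, 140 and 158 CPM in 752, 712 and 713 and at 225 to 367 CPM in the other 9 male libraries. Cacna1h, a T-type pore, was at 41.4, 50.8 and 72.2 CPM against 91.0 to 163 CPM. Cacna1e was at 150, 138 and 151 CPM against 197 to 311 CPM.

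The 6 higher members in these libraries were Scn1a, Scn4b, Scn9a, Scn10a, Cacna1i and Cacng2. Of these, Scn1a, Scn4b and Cacna1i also lay above every female library. Female library 331 held Scn9a at 5.21 CPM and Cacng2 at 80.3 CPM, and female library 314 held Scn10a at 0.987 CPM. Scn1a was at 288, 155 and 157 CPM against 81.1 to 145 CPM in the other 9 male libraries. Cacna1i was at 201, 123 and 129 CPM against 86.6 to 116 CPM. Scn10a had 0.71 to 0.94 CPM in them against 0 to 0.49 CPM, from at most 18 counts a library. Scores of 8 inhibitory neuron genes were 6.77, 6.52 and 6.5 in these libraries and 5.58 to 6.34 in the other 9 males. All marker genes of these lists were found in the table. How far the dissected region contributes to these differences was not tested.

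Because library 711 differed from 712 and 713 within male KO Tau, its weight was examined. Left out of the joint fit of the 12 male libraries, no member was called by edgeR in KO Tau against either WT group, with 1 member at an unadjusted p under 0.05 against WT PBS and 5 against WT Tau. When only the libraries of the pair were fitted and 711 was left out, many were. Against WT PBS, edgeR called 8 of 35 members (4.15% of all genes), and DESeq2 called 9 of 33 (7.3% of all genes). Against WT Tau, edgeR called 9 of 35 (4.88%), and DESeq2 called 13 of 34 (9.25%). The tools shared 7 members against WT PBS and 9 against WT Tau. These members were chosen after their values were seen. In this setting the 2 remaining KO Tau libraries are those with low dentate and high neocortex scores, so the effect of group and that difference cannot be told apart in these calls.

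The members called in these fits included several already listed as lower or higher in 752, 712 and 713. By edgeR against WT Tau without 711, Scn3b fell by 0.79 ± 0.10, Cacna1e by 0.59 ± 0.09, Cacna1h by 0.83 ± 0.16, Cacng8 by 0.72 ± 0.16 and Cacnb2 by 0.47 ± 0.08 on the log2 scale. Scn3a, at 42.3, 44.1 and 45.5 CPM in WT Tau and 33.7 and 33.3 CPM in 712 and 713, fell by 0.37 ± 0.08. In the other direction, Scn4b rose by 0.71 ± 0.14, Cacng2 by 0.45 ± 0.09 and Cacna1g by 0.49 ± 0.10. The adjusted p-values of edgeR for these 9 ran from 0.0164 to 0.0477. With all 12 male libraries none of them was called, and the values were -0.46 for Scn3b, -0.30 for Cacna1e, -0.19 for Cacna1h, -0.35 for Cacng8, -0.39 for Cacnb2 and -0.21 for Scn3a. On the higher side they were 0.54 for Scn4b, 0.37 for Cacng2 and 0.34 for Cacna1g.

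Smaller counts came from 2 other omissions. Without 752, DESeq2 on the pair called 3 of 33 members in KO PBS against WT PBS (1.54% of all genes), with Cacnb4 at -0.35, Cacng3 at -0.41 and Cacng8 at 0.51 (log2). These values rested on the omission, since with all 12 male libraries edgeR gave Cacnb4 the opposite sign, at 0.26, with Cacng3 at -0.21 and Cacng8 at 0.19. Without 773, DESeq2 on the pair called 2 of 29 members in WT Tau against WT PBS (2.13% of all genes), with Cacna1g at -0.44 and Cacng3 at -0.52, against -0.37 and -0.34 by edgeR with all 12 male libraries. Cacng3 was at 64.8 and 61.9 CPM in WT Tau libraries 771 and 772 and at 90.3 CPM in 773, against 96.3, 81.1 and 94.4 CPM in WT PBS. edgeR called 0 members in either of these, with 8 and 9 members at an unadjusted p under 0.05.

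**Figure D3:**
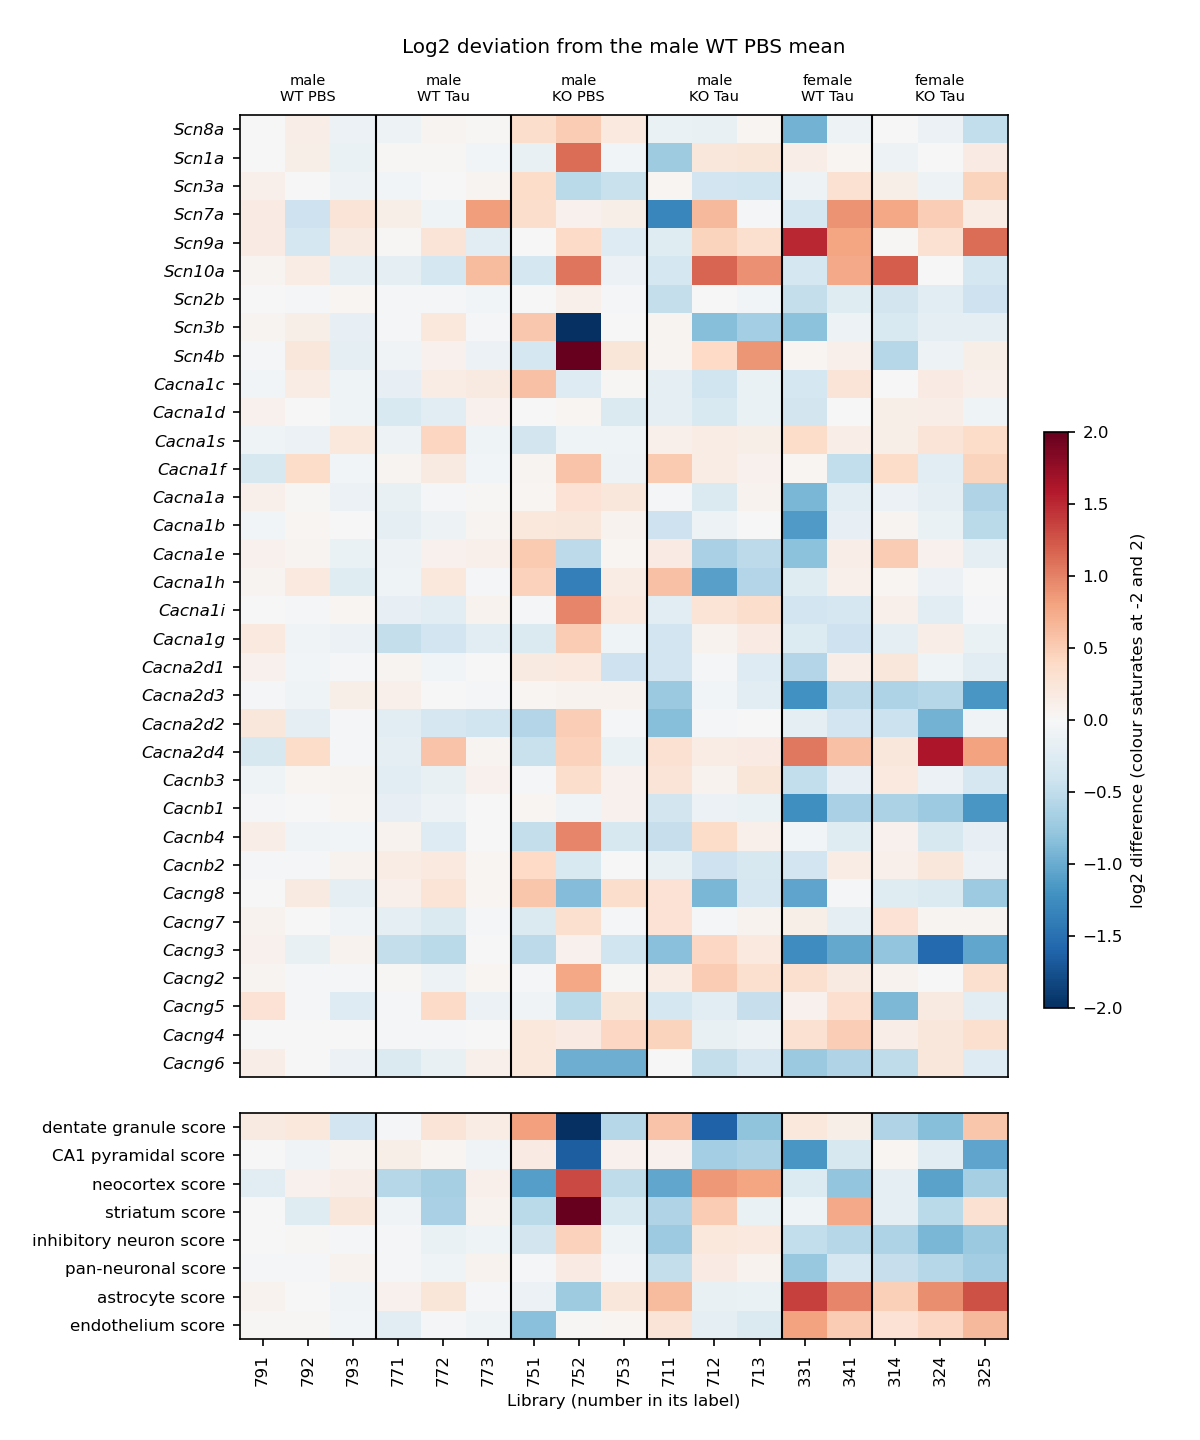
Log2 difference of 34 tested members (CPM plus 0.5) from the male WT PBS mean in each of 17 libraries, with group boundaries as black lines, and below it the same difference for 8 marker scores (red higher, blue lower). Columns 752, 712 and 713 share low Scn3b and Cacna1h with low dentate scores. Female column 331 is also low in Scn3b (-0.822), at a dentate score of 4.81, a CA1 pyramidal score of 5.97 and a pan-neuronal score of 9.27. Female column 324, at a dentate score of 3.74, has Scn3b at -0.188 and Cacna1h at -0.116. The 5 female columns share low Cacnb1, Cacna2d3 and Cacng3 with high astrocyte scores. Male column 711 also has low Cacna2d3 and Cacng3, with an astrocyte score of 8.31.

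The last question was whether the channel genes differed between females and males under Tau, and whether Acss2 loss acted differently in them. In the 11 Tau libraries 36 members were tested among 15419 genes. Female against male was the comparison with the most calls: 5 of 36 members (13.9%) were past the FDR, 4 lower and 1 higher in females, against 23.8% of all genes. The share of members was thus below that of all genes, and no test was made of that difference. By contrast, 0 members were called in female KO against female WT (0.00649% of all genes, 0 members at an unadjusted p under 0.05) or in the sex by genotype interaction (0% of all genes, 3 members). DESeq2 also called 0 in both.

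Cacnb1 was the member with the smallest adjusted p between the sexes. Cacnb1, a beta subunit best known from skeletal muscle but expressed in brain, was at 74.3 and 111 CPM in female WT Tau and at 112, 106 and 77.8 CPM in female KO Tau, against 135 to 177 CPM in the 6 male Tau libraries. The groups did not overlap, and the log2 fold change was -0.79 ± 0.15 (edgeR adjusted p = 0.0077).

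Cacng3 and Cacna2d3 were lower in females with overlap in 1 male library. Cacng3, a TARP, was at 37.9 and 44.0 CPM in female WT Tau and at 52.1, 30.6 and 43.5 CPM in female KO Tau, with 50.2 to 120 CPM in male Tau. The log2 fold change was -1.03 ± 0.23 (edgeR adjusted p = 0.0126), and male library 711 at 50.2 CPM was the only one to overlap. Cacna2d3, at 61.8 and 101 CPM in female WT Tau and 93.4, 97.3 and 64.2 CPM in female KO Tau, had a log2 fold change of -0.71 ± 0.18 (edgeR adjusted p = 0.0196), and again 711, at 85.9 CPM, overlapped.

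The 1 higher member was Scn9a, the Nav1.7 channel. It was at 5.21 and 2.98 CPM in female WT Tau and at 1.55, 1.98 and 3.86 CPM in female KO Tau, against 1.2 to 2.24 CPM in male Tau, so that the groups overlapped. Its log2 fold change was 0.83 ± 0.27 (edgeR adjusted p = 0.0456), the closest of the 5 to the threshold. Cacna2d4 was 0.80 ± 0.29 higher (edgeR adjusted p = 0.0649), from levels of 1.25 to 5.60 CPM over both sexes. The females also differed in marker scores, but among those given here only endothelium had no overlap with male Tau. Their pan-neuronal score (6 genes) was 9.27 to 9.69 against 9.55 to 10.2 in male Tau, and their inhibitory neuron score 5.39 to 5.82 against 5.58 to 6.52. The astrocyte score (7 genes) was 8.14 to 9.03 against 7.52 to 8.31, and the endothelium score (7 genes) was 4.94 to 5.45 against 4.36 to 4.91, without overlap. The microglia score (8 genes) was 6.07 to 6.37 in females against 5.73 to 6.14 in male Tau, and the thalamus score (8 genes) was 3.29 to 5.57 against 3.17 to 4.34. The score of 6 nuclear-retained RNAs was 9.05 to 9.65 in females against 9.71 in male library 711 and 8.51 to 8.96 in the other 5 male Tau libraries. The part of these differences in the lower channel levels was not tested.

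The count of calls between the sexes depended on single libraries. Without female WT Tau library 331, only Cacnb1 was called (3.99% of all genes), at a log2 fold change of -0.65. Without female WT Tau library 341, 10 members were called (22.8% of all genes), and without male KO Tau library 711, 11 were called (40.7%). With DESeq2 on the 11 libraries 7 members were called (26.4% of all genes), with Scn2b at -0.29 and Cacna2d4 at 0.81 in addition to the 5.

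**Figure D4:**
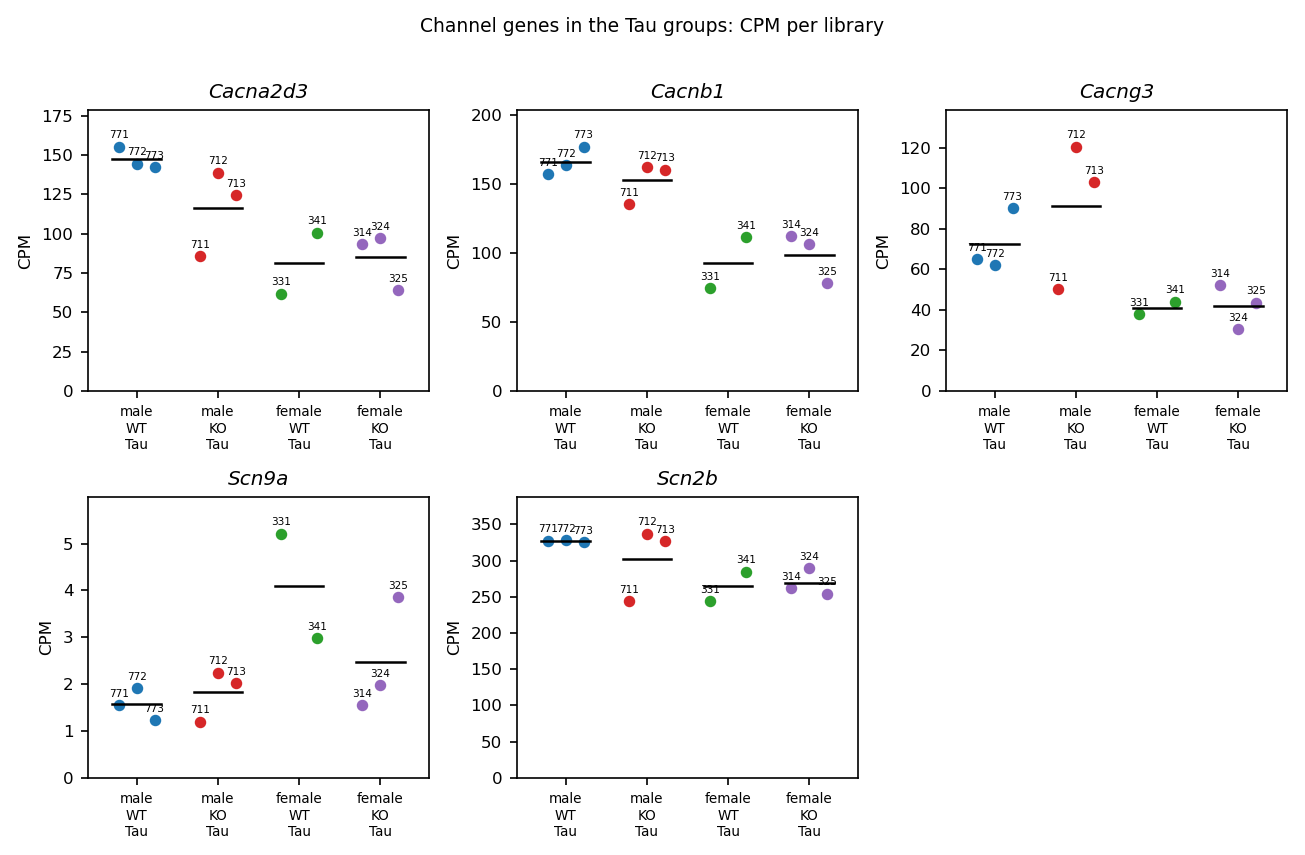
CPM per library of 5 channel genes in the 4 Tau groups, with library numbers beside the points and a black bar at each group mean (n = 3, or 2 for female WT Tau). Cacnb1 separates the sexes at 74.3 to 112 against 135 to 177 CPM, while Scn9a overlaps.

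A test for any difference over the 6 groups called 5 of 36 members in the 17 libraries (13.9%, against 19% of all 15594 genes tested). Cacnb1, Cacna2d3, Scn2b and Cacng3 were among them, with edgeR adjusted p-values of 0.0038, 0.0133, 0.0362 and 0.0181. Scn2b, a beta subunit, was at 325 to 363 CPM in the 9 male libraries of WT PBS, WT Tau and KO PBS. The male KO Tau libraries held 244, 337 and 327 CPM of it, and the 5 female libraries 244 to 290 CPM. DESeq2 called 10 members (27.2% of all genes), adding Cacna1a, Cacna1i, Scn4b, Scn8a and Scn9a. Because no female received PBS, this test mixes sex with treatment.

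In the sex by genotype interaction, the members with an unadjusted p under 0.05 were Scn4b at -0.73 ± 0.29, Cacng2 at -0.43 ± 0.16 and Cacnb2 at 0.62 ± 0.25 (log2). None passed the FDR (edgeR adjusted p = 0.978 for each). Each of these genes is among the members listed above as lower or higher in male KO Tau libraries 712 and 713. Library 711 lay on the same side of male WT Tau for Cacnb2, at 52.7 CPM against 59.9 to 66.4 CPM. The same held for Cacng2, at 71.1 CPM against 59.7 to 66.1 CPM. For Scn4b, 711 at 50.8 CPM lay within male WT Tau, at 45.0 to 51.8 CPM.

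A list of 27 partners of the channels was read beside the members. It held the FGF homologous factors Fgf11 to Fgf14, the anchors Ank3, Sptbn4 and Nfasc, the calmodulins and other calcium sensors, RIM and RIM-binding proteins, RGK proteins that inhibit calcium channels, the leak channel Nalcn with its partners, and the cornichons of AMPA receptors. All 27 were tested. No partner was called in any of the 8 male comparisons, with at most 5 at an unadjusted p under 0.05. Under Tau, 4 (14.8%) were called between the sexes, against 23.8% of all genes. Rimbp2, which ties calcium channels to the release site, was -0.55 ± 0.14 lower in females, Sptbn4, a spectrin of the axon initial segment, -0.34 ± 0.09, and Unc79 -0.34 ± 0.09. Unc80, like Unc79 a subunit of the leak channel complex, was 0.33 ± 0.11 higher (edgeR adjusted p = 0.0188, 0.0255, 0.0211 and 0.0454). The same 4 were called in the test over 6 groups, where 19% of all genes were.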

How the data were processed

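Bulk RNA was extracted with Trizol from dorsal hippocampus slices of perfused mice, and poly(A) libraries were made with a NEBNext Ultra II RNA kit. According to the study's methods and the submitters' processing notes, reads were aligned with STAR 2.5.2 to GRCm38 (mm10) and reverse-stranded reads over exons were counted per gene with HTSeq 0.9.1. The deposited values are whole-number counts per gene symbol for 17 libraries, which the authors did not normalize. The annotation release behind them is not given in the sources used here. The study tested male libraries with DESeq2 and used 2 male KO Tau libraries where the labels give 3. Which one was left out is not given in the sources used here, so all 3 were used and each was left out in turn. DESeq2 on the pair without 711 called 1032 genes against WT PBS and 1377 against WT Tau. These lie close to the counts that the paper reports for both comparisons, so 711 was probably the library left out.

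From these counts, CPM was computed over each library's total, and TPM over the summed exon length in GENCODE (GRCm38), in which 98.5% of symbols were found. Groups came from the labels. Tests used edgeR 4.0.16 in R 4.3.3 (quasi-likelihood, TMM factors, filterByExpr with a minimum count of 10 and a minimum total of 15, Benjamini-Hochberg adjustment over all genes tested). Male comparisons came from 1 fit of 12 libraries, those with females from 1 fit of 11 Tau libraries, and the test over 6 groups from all 17. No source says that libraries of a group came from separate litters, so p-values measure the spread between these libraries. No pair of the 136 pairs of libraries had identical counts. The edgeR fit of the 12 male libraries was tested on simulated counts for male KO Tau against WT PBS. At the FDR it recovered 10.2% of genes changed by 0.5 on the log2 scale. For changes of 1, 2 and 3 it recovered 62.5%, 98% and 100%. The simulated spread followed the trend over level, not the spread of each gene. Fold changes were named for members past the FDR and, in each comparison, for up to 3 higher and 3 lower members with the smallest unadjusted p under 0.05, and other members were named after their values were seen. A marker score averages log2 CPM (prior count 2) over the genes of its list. Alternatives were DESeq2 1.42.0, RLE factors, no filter, length and GC offsets, other sets of libraries in the fit and each library left out. The members, lists and tests were chosen with earlier results of these data known. Protein sequences of the members were not used here. The counts of members include 2 genes whose own values are not reported here.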

Additional observations from a re-analysis of the deposited data

How the results depend on the processing

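The fold changes of 3 members, none of them called with all libraries, reversed their direction when 1 library was left out. With 1 library left out at a time, by either tool and with either set of libraries, Cacnb4 in male KO PBS against WT PBS ran from -0.351 without 752 to 0.518 without 751 (0.26 with all). Cacng8 in the same comparison ran from -0.101 without 751 to 0.511 without 752 (0.19 with all), and Cacna1h in male KO Tau against WT Tau from -0.832 without 711 to 0.126 without 712 (-0.19 with all). Among the recounts of members called, 272 stayed within 1.5 times the main count and 15 did not, and among the refitted fold changes of members given above 913 kept their direction and side of the threshold, 12 lost the threshold, 30 gained it and 9 reversed. DESeq2 on the same libraries gave 1 member in male KO Tau against KO PBS (0 by edgeR) and 10 in the test over 6 groups (5 by edgeR). Leaving out 1 library at a time, by either tool and with either set of libraries, gave 0 to 2 members called in male WT Tau against WT PBS, 0 to 3 in KO PBS against WT PBS, 0 to 9 in KO Tau against WT PBS and 0 to 13 in KO Tau against WT Tau. With edgeR alone, leaving out 1 library gave 1 to 11 in female against male under Tau and 3 to 8 in the test over 6 groups, with 3 without female library 331 or 325 and 8 without 341 or 711. Fits with an arm of 1 library, such as female WT Tau without 331, assume that it varies like the other groups. For the differences between the alternatives the cause was not tested. By longest transcript, the mean level of 10 of the 39 members moved by more than the spread within groups, the most for Cacnb2 (36.8 in place of 18.5 TPM) and Cacna2d3 (107 in place of 59.8 TPM). No paired analysis was possible because the groups share no replicate numbers in the labels. Depth was not limiting for abundant members, whereas Scn4a, Scn10a, Scn11a and Cacng1 rest on few counts.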
